A study of Homo sapiens with 9 samples.

Results

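This comparison sets SNU16 cells exposed to 7.69 µM 5-fluorouracil (5-FU) directly against SNU16 cells exposed to 80 µM hydrogen peroxide (H2O2), both for 24 h, with 3 libraries in each group. It uses 6 of the study's 9 libraries, chosen by their treatment labels. The other 3 libraries, from untreated control cells, are given as a baseline and share in the estimate of the spread. SNU16 is an established human gastric carcinoma line, labelled as wild type, and each agent was tested at 1 dose and 1 time in this 1 line. The labels do not say whether the replicates were separate cultures, so a p-value here measures only the spread between libraries, which may be technical.

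5-FU is turned inside cells into fluorinated nucleotides. Some of them block thymidylate synthase, the enzyme that makes thymidine nucleotides for DNA, and others are built into RNA and DNA, so the drug is known for stalling replication forks, engaging p53 and disturbing the processing of ribosomal RNA. H2O2 oxidises the thiol groups of proteins and is cleared by catalase, peroxiredoxins and glutathione peroxidases. Cells meet it in part through NRF2, a transcription factor that switches on genes for glutathione handling, thioredoxin and detoxification. Both agents can damage DNA, and the direct contrast shows which RNAs separated the 2 exposures.

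The measured quantity was FPKM, a fragment count scaled to transcript length and to the mapped fragments of the library, added up over the listed transcripts of a gene. The table lists mostly transcripts of non-coding classes. At the median tested protein-coding gene, retained-intron transcripts made up 100% of the level. A level under most protein-coding symbols is thus mainly that of incompletely spliced RNA and not of the mRNA. In OAS2, OASL, TCF19, ACSL4 and MTHFD2, named below, transcripts classed as retained-intron by the GENCODE V29 annotation made up 0%. The most abundant listed transcript of each is absent from that annotation and so has no class. Transcripts classed as protein-coding also made up 0%, so whether these levels are those of mRNA is not known. Of all genes listed, 9361 reached 0.5 FPKM in at least 3 of the 6 treated libraries and were tested, among them 6484 protein-coding and 2262 long non-coding RNA (lncRNA) genes. Sequencing depth is unknown. Library totals of listed FPKM lay between 56096.4 and 60642.1.

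Correlations did not set the 2 exposures apart, and replicate 3 of each exposure differed most from the others. For example, 5-FU replicate 1 correlated at 0.938 with H2O2 replicate 1 and at 0.928 with 5-FU replicate 3. Pairwise correlations of log2 levels ran from 0.926 to 0.940 within 5-FU, from 0.916 to 0.940 within H2O2 and from 0.901 to 0.938 between them. On the first principal component, which held 21.1% of the variance, the 5-FU libraries scored 12.5, 15.4 and 33.1 and the H2O2 libraries scored -5.995, -9.04 and 5.42, so replicate 3 lay farthest toward the positive side in each group. H2O2 replicate 3 also stood apart on the second component, at 40.9, where every other library lay between -10.2 and 2.69. Epithelial marker genes (10 of 22 tested) were present, with summed levels of 220 to 292 FPKM in 5-FU libraries, 320 to 459 FPKM in H2O2 libraries and 342 to 433 FPKM in control libraries. Fibroblast, leukocyte and endothelial markers summed to at most 0.728, 0.324 and 0 FPKM in any library. These are whole-culture RNA measurements, in which fewer cells of a type and less RNA per cell cannot be told apart.

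Few single genes separated the 2 exposures by the test across all genes. With limma and Benjamini-Hochberg adjustment, 9 of 9361 genes (0.0961%) passed an adjusted p of 0.05, of which 4 were higher (0.0427%) and 5 lower (0.0534%) in 5-FU than in H2O2. At an unadjusted p under 0.05 there were 1100 genes (11.8%). The 3 libraries of each exposure did not overlap for 1683 genes (18.0%), 911 of them higher in 5-FU (9.73%) and 772 lower (8.25%). A single gene compared by an exact permutation test cannot go below p = 0.1 with 3 against 3 libraries, and it reaches that value for every gene whose groups do not overlap. The median log2 difference over all genes tested was 0.00, with a median standard error of 0.23. In simulated data with this spread and 200 genes changed, 31% of those changed by 1 on the log2 scale were recovered, with 2 false calls. Of those changed by 2, 91.5% were recovered, with 13 false calls. Many differences of about 2-fold would thus be missed in such data. The noise was drawn alike for every library, so libraries that stood apart were not modelled.

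**Figure D1:**
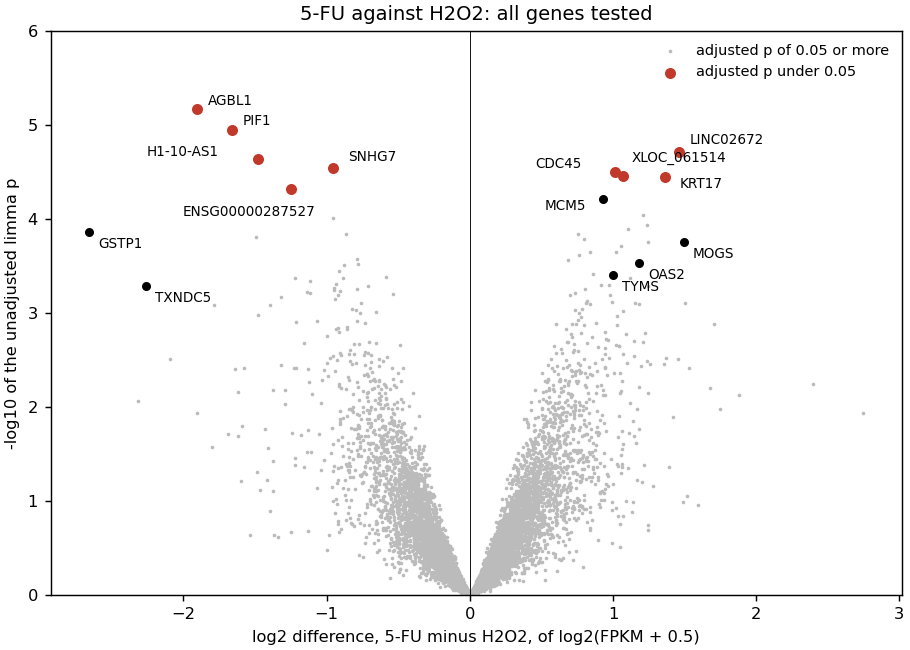
Each point is 1 of the 9361 tested genes; the x axis is the log2 difference, 5-FU minus H2O2, of log2(FPKM + 0.5) and the y axis is -log10 of the unadjusted limma p. Red points are the 9 genes with an adjusted p under 0.05, and black points are 6 further genes described in the text, of which GSTP1 lies farthest to the left at -2.66.

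The 9 genes fall into 2 patterns by direction, and in all 9 the control mean lay nearer to the H2O2 mean than to the 5-FU mean. That was so for 55.8% of all genes tested and for 65.2% of the 1683 genes whose exposures did not overlap. Among these 9, 5-FU was thus the exposure farther from untreated cells. The calls were sensitive to the number of libraries in the fit. None of the 9361 genes passed when the fit held only the 6 treated libraries (smallest adjusted p = 0.0997, limma), although all 9 kept an unadjusted p under 0.001. Leaving out a single library also gave 0 calls for 5-FU replicates 2 and 3, H2O2 replicates 1 and 2 and control replicates 1, 2 and 3, while 3 calls were made without 5-FU replicate 1 and 4 without H2O2 replicate 3.

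CDC45 is a part of the replicative helicase that unwinds DNA ahead of the polymerases. Its retained-intron transcripts (chr22:19479738-19520594, GRCh38, forward strand) stood at 7.40, 8.07 and 8.93 FPKM in 5-FU libraries, against 3.61, 3.76 and 3.94 FPKM in H2O2 libraries and 4.01, 4.16 and 3.95 FPKM in control libraries. All 3 5-FU libraries lay well above all 6 others, which differed little among themselves. CDC45 rose by 1.01 ± 0.14 (SE) on the log2 scale in 5-FU relative to H2O2, with an adjusted p of 0.0418 that ran from 0.0367 to 0.239 over the alternatives.

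PIF1, a helicase that unwinds G-quadruplexes and acts at stalled forks and telomeres, went the other way. Its levels (chr15:64816652-64825625, reverse strand) were 0.472, 0.727 and 0.861 FPKM in 5-FU libraries, against 2.85, 3.66 and 3.18 FPKM in H2O2 libraries and 1.93, 2.81 and 2.91 FPKM in control libraries. Every 5-FU library was under 1 FPKM and every other library was near or above 2. The log2 difference was -1.66 ± 0.21 (SE; adjusted p = 0.0418, limma, and 0.0220 to 0.203 over the alternatives).

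Among lncRNA genes, 3 of 2262 passed (0.133%). LINC02672 (chr10:52972612-53030024, reverse strand), an intergenic lncRNA, stood at 3.33, 3.07 and 2.44 FPKM in 5-FU libraries, against 0.816, 0.925 and 0.529 FPKM in H2O2 libraries and 0.865, 1.02 and 0.997 FPKM in control libraries. The 5-FU libraries were all above 2 FPKM and the others all near or below 1, for a log2 difference of 1.46 ± 0.20 (SE; adjusted p = 0.0418, limma, and 0.0352 to 0.205 over the alternatives). H1-10-AS1 (chr3:129315392-129326225, forward strand), which lies antisense to the linker histone gene H1-10, was at 1.57, 1.14 and 1.07 FPKM in 5-FU libraries, against 3.55, 5.14 and 4.53 FPKM in H2O2 libraries and 4.42, 5.84 and 4.25 FPKM in control libraries. Its 5-FU libraries were all below the other 6, with a log2 difference of -1.48 ± 0.20 (SE; adjusted p = 0.0418, limma, and 0.0352 to 0.280 over the alternatives). The sources used here do not state whether strand was used in counting, so reads of the overlapping H1-10 gene cannot be separated from those of H1-10-AS1. The same holds for other genes below whose spans overlap a gene of the opposite strand in GENCODE V29, such as SNHG7 with FAM69B, ZGRF1 with LARP7, NCAPD3 with JAM3 and TYMS with TYMSOS.

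SNHG7 (chr9:136721366-136728184, reverse strand), a spliced lncRNA whose introns carry H/ACA small nucleolar RNAs (snoRNAs), was the most abundant called lncRNA. It stood at 38.2, 29.3 and 31.9 FPKM in 5-FU libraries, against 66.4, 65.6 and 60.8 FPKM in H2O2 libraries and 58.6, 63.5 and 58.6 FPKM in control libraries. No 5-FU library reached 40 FPKM and no other library was below 58. The log2 difference was -0.95 ± 0.13 (SE; adjusted p = 0.0418, limma, and 0.0352 to 0.230 over the alternatives).

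The remaining 4 called genes are named here after their values were seen, since they fall below the level asked of named genes or carry no symbol. KRT17, a keratin of basal and stressed epithelium, was at 1.005, 0.521 and 0.880 FPKM in 5-FU libraries and listed at 0 in all 3 H2O2 libraries, against 0, 0.0477 and 0.0940 FPKM in control libraries (adjusted p = 0.0418, limma). AGBL1, which encodes a carboxypeptidase that shortens glutamate chains on tubulin, was at 0.00405, 0.0156 and 0.126 FPKM in 5-FU libraries, against 1.22, 1.44 and 2.07 FPKM in H2O2 libraries and 1.04, 1.46 and 1.78 FPKM in control libraries (adjusted p = 0.0418, limma). Both sat at low levels and reached the 0.5 FPKM of the filter in 1 exposure only, KRT17 in 5-FU and AGBL1 in H2O2, so they entered the test through the side where they were high and their calls support nothing further. The same was so for 105 of the 9361 genes tested, while the other 7 called genes reached that level in both exposures.

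XLOC_061514, a locus on an unplaced scaffold with 2 transcripts assembled from the reads, had a summed level of 67.7, 87.0 and 94.6 FPKM in 5-FU libraries, against 38.4, 42.5 and 36.1 FPKM in H2O2 libraries and 41.9, 46.3 and 49.4 FPKM in control libraries. Its log2 difference was 1.07 ± 0.15 (SE; adjusted p = 0.0418, limma). The gene ENSG00000287527 on chromosome 5, which is absent from the GENCODE V29 annotation, was at 1.23, 0.992 and 1.39 FPKM in 5-FU libraries, against 3.53, 3.08 and 4.08 FPKM in H2O2 libraries and 3.12, 2.35 and 3.04 FPKM in control libraries. Its log2 difference was -1.25 ± 0.19 (SE; adjusted p = 0.0496, limma).

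**Figure D2:**
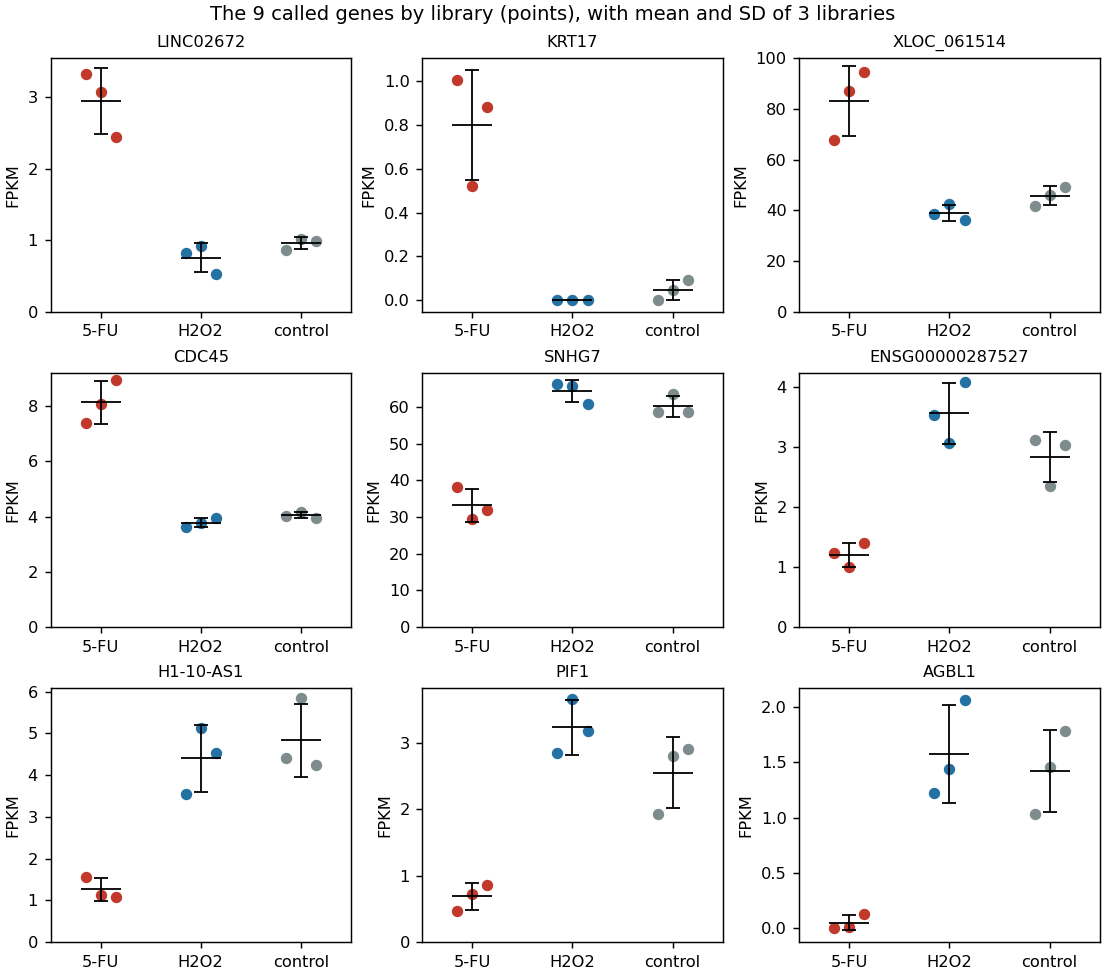
FPKM of each of the 9 called genes in every library, with 5-FU, H2O2 and control from left to right; points are libraries, the long bar is the mean of 3 libraries and the whiskers are its SD. In each panel the control points lie beside the H2O2 points, as in CDC45, where both groups stay under 4.2 FPKM and 5-FU exceeds 7.

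Genes that build and fire replication origins had the highest median of the 27 lists. Of 26 S phase and replication genes, 18 were tested, and 13 had 5-FU libraries all above the H2O2 libraries, against 9.73% of all genes, with none the other way. The list median was 0.53 on the log2 scale, against 0.00 over all genes, and it ran from 0.47 to 0.72 over the alternatives. GINS3, a subunit of the replicative helicase, is 1 of the 13 and reached the filter through 5-FU alone. CDC45 was the only member past the threshold. Without both libraries numbered 3, an alternative added after seeing the data, 14 of the 18 did not overlap in the same direction, against 19.7% of all genes.

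The MCM proteins form the ring of the replicative helicase that CDC45 completes. MCM5 missed the threshold at 10.3, 10.3 and 11.4 FPKM in 5-FU libraries, against 5.78, 5.09 and 5.23 FPKM in H2O2 libraries and 5.22, 4.60 and 5.41 FPKM in control libraries (log2 difference 0.93 ± 0.14 SE, adjusted p = 0.0574, limma). MCM2 was at 1.83, 1.64 and 1.998 FPKM in 5-FU libraries, against 0.575, 0.919 and 1.20 FPKM in H2O2 libraries (0.75 ± 0.21, adjusted p = 0.207). MCM6 was at 1.52, 2.30 and 1.68 FPKM in 5-FU libraries, against 0.989, 0.575 and 1.21 FPKM in H2O2 libraries (0.72 ± 0.24, adjusted p = 0.272). In all 3 the exposures did not overlap, and the H2O2 and control levels overlapped.

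MCM7 was more abundant, at 43.8, 41.6 and 49.4 FPKM in 5-FU libraries, against 34.9, 34.0 and 25.8 FPKM in H2O2 libraries (0.51 ± 0.15, adjusted p = 0.225, limma). RFC4, a subunit of the clamp loader, was at 6.88, 14.03 and 10.5 FPKM in 5-FU libraries, against 5.79, 3.51 and 4.84 FPKM in H2O2 libraries (1.04 ± 0.26, adjusted p = 0.172). CCNE1, the cyclin that opens S phase with CDK2, was at 2.33, 2.91 and 3.79 FPKM in 5-FU libraries, against 1.58, 1.09 and 2.21 FPKM in H2O2 libraries (0.74 ± 0.29, adjusted p = 0.358). These 3 did not pass, and their exposures did not overlap. The exceptions to the direction were RPA1 and CDT1, whose libraries scattered: CDT1 ran from 0.515 to 20.2 FPKM within 5-FU and from 1.06 to 8.72 FPKM within H2O2.

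**Figure D3:**
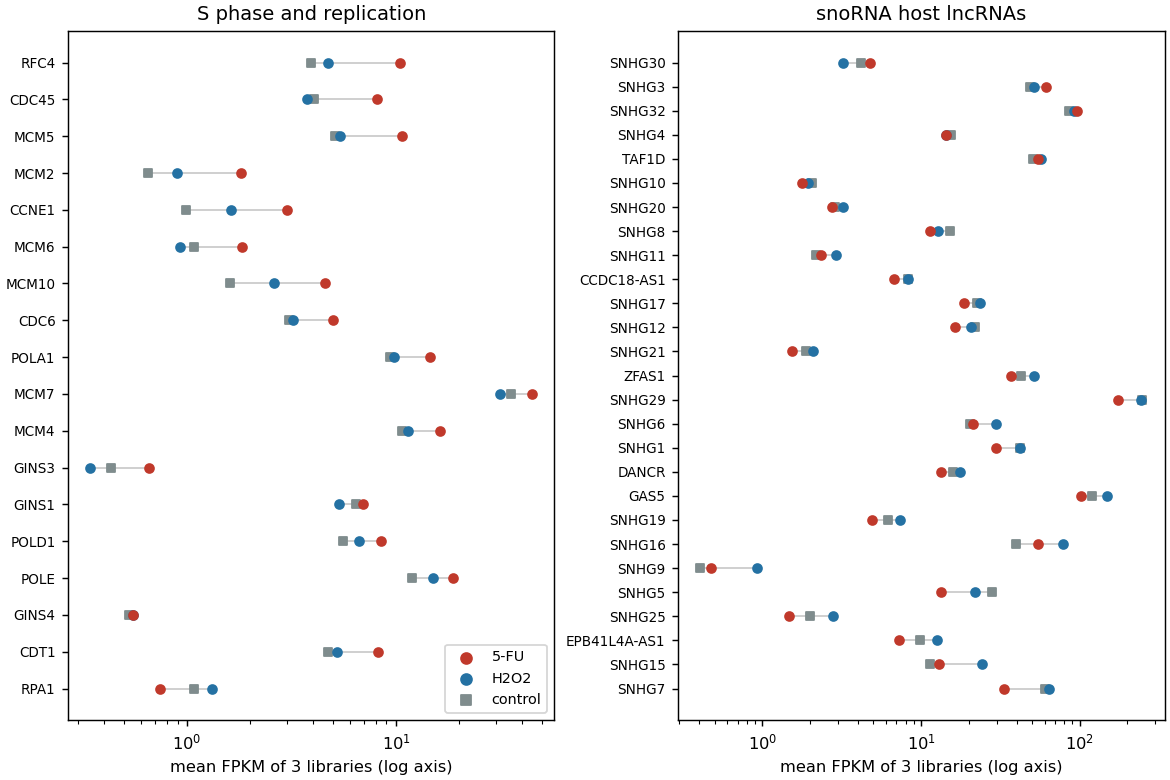
Mean FPKM of 3 libraries on a log axis for every tested member of 2 gene lists, the 18 S phase genes on the left and the 27 snoRNA host lncRNAs on the right; red is 5-FU, blue H2O2 and grey squares control. CDC45 and MCM5 have red points to the right of paired blue and grey ones, while SNHG7 has its red point to the left of both.

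Promoters of S phase genes are known to be bound by E2F factors, and the letters of an E2F-type motif were looked up to describe the promoters of the list. TTTNNCGC, searched on both strands in the RefSeq promoters of GRCh38.p14 from 250 bases before to 50 after the start, was present in 9 of the 15 tested members that had an entry (60.0%), against 6.90% of all 27305 promoters. The match is a description of the letters, not of a bound site. The promoters of MCM2 (chr3:127598161-127598460, forward strand), MCM6 (chr2:135876394-135876693, reverse strand) and MCM7 (chr7:100101348-100101647, reverse strand) are shown because these 3 genes encode subunits of 1 complex and each had non-overlapping exposures, with matches on either strand in capitals; in MCM2 and MCM6 a forward and a reverse match overlap. CDC45, RFC4 and CCNE1, whose exposures did not overlap, had no match in this window. CDT1, whose exposures overlapped, had 2 matches, and RPA1, which also overlapped, had none. The motif thus did not follow the difference between the exposures from member to member.
MCM2: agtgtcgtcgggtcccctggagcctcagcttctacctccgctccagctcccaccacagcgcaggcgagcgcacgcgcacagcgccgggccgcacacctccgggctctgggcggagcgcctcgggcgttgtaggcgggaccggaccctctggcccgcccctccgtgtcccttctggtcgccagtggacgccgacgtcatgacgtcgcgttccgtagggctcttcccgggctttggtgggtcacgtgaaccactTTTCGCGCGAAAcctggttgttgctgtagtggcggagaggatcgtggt
MCM6: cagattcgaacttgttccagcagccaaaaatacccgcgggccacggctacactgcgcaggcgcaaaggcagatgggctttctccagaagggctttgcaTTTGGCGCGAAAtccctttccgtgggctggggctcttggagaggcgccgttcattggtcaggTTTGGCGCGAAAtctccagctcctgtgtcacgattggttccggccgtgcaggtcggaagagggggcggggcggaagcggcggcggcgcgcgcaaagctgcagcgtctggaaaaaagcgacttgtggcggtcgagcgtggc
MCM7: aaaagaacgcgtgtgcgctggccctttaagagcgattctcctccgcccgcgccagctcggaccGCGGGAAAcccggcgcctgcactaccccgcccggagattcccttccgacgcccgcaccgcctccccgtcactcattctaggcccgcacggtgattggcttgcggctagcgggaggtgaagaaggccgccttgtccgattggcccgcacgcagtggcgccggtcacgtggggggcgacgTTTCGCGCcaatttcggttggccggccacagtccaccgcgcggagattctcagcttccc

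The list of genes of the later cell cycle stages had a median of 0.06, near that of all genes. Both exposures lay above control, with median log2 differences of 0.58 in 5-FU and 0.50 in H2O2. SMC4, the most abundant member, had group means of 38.7 FPKM in 5-FU, 29.5 FPKM in H2O2 and 18.9 FPKM in control. PKMYT1 had 6.98, 4.31 and 2.03 FPKM in the same order. Of 18 tested G2 and M phase genes, none passed, 4 did not overlap with 5-FU higher and none with 5-FU lower, against 9.73% and 8.25% of all genes. NCAPD3, a condensin subunit, was at 30.7, 30.5 and 33.2 FPKM in 5-FU libraries, against 18.1, 19.6 and 20.6 FPKM in H2O2 libraries and 17.8, 17.2 and 15.8 FPKM in control libraries (0.68 ± 0.13, adjusted p = 0.0949, limma). PLK1, BUB1 and CCNB1, mitotic kinases and a cyclin, overlapped between the exposures, with fitted log2 differences of -0.23, -0.15 and -0.14.

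Of 35 listed DNA repair genes, 33 were tested, and PIF1, lower in 5-FU, was the only member past the threshold. Like every list here, this one was chosen with earlier results of these data known, so its counts are a description only. The fitted level was higher in 5-FU for 28 members and lower for 5, with a median of 0.33. Exposures did not overlap in 11 members with 5-FU higher and in 2, PIF1 and UNG, with 5-FU lower, against 9.73% and 8.25% of all genes. Without both libraries numbered 3 the counts were 16 and 4, against 19.7% and 22.3% of all genes.

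ZGRF1, a helicase of interstrand crosslink repair, was at 13.3, 15.4 and 18.0 FPKM in 5-FU libraries, against 7.59, 7.23 and 4.76 FPKM in H2O2 libraries and 6.11, 5.42 and 5.65 FPKM in control libraries (1.21 ± 0.19, adjusted p = 0.0761, limma). BRCA1, which directs homologous recombination, was at 19.2, 16.1 and 21.3 FPKM in 5-FU libraries, against 9.55, 11.1 and 9.80 FPKM in H2O2 libraries and 9.98, 12.8 and 13.5 FPKM in control libraries (0.86 ± 0.17, adjusted p = 0.108). FANCI, of the Fanconi anaemia pathway, was at 54.3, 59.2 and 71.7 FPKM in 5-FU libraries, against 37.5, 35.3 and 40.2 FPKM in H2O2 libraries (0.70 ± 0.14, adjusted p = 0.108). In these 3 genes every 5-FU library exceeded every H2O2 and control library, and none passed the threshold.

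FANCA, FANCD2, FANCG, BARD1 and RECQL4 also had non-overlapping libraries with 5-FU higher, at fitted log2 differences of 0.57 to 0.91. UNG, the glycosylase that removes uracil and fluorouracil from DNA, had 5-FU libraries at 0.598, 0.856 and 1.22 FPKM, below H2O2 libraries at 1.97, 1.38 and 1.55 FPKM (-0.63 ± 0.31, adjusted p = 0.451, limma). HELLS, a chromatin remodeller linked to DNA methylation and not in the list, was at 28.7, 24.8 and 18.99 FPKM in 5-FU libraries, against 10.2, 13.8 and 10.7 FPKM in H2O2 libraries and 11.3, 11.0 and 9.61 FPKM in control libraries (1.02 ± 0.18, adjusted p = 0.0870).

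TYMS encodes thymidylate synthase, the target of 5-FU. Its only listed transcript is a retained-intron one (chr18:657665-669464, forward strand). It stood at 7.47, 5.70 and 6.41 FPKM in 5-FU libraries, against 3.30, 3.51 and 2.30 FPKM in H2O2 libraries and 3.36, 3.87 and 2.92 FPKM in control libraries. Every 5-FU library lay above the other 6, while H2O2 and control interleaved. The log2 difference was 1.001 ± 0.19 (SE), and the adjusted p of 0.108 missed the threshold (limma, 0.0899 to 0.375 over the alternatives).

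Around TYMS, the list of fluoropyrimidine and nucleotide metabolism had 20 of 24 genes tested, none past the threshold, 8 without overlap and higher in 5-FU (9.73% of all genes), none the other way (8.25% of all genes), and a median of 0.26. Without both libraries numbered 3, 9 of the 20 did not overlap with 5-FU higher and 2 with 5-FU lower, against 19.7% and 22.3% of all genes. MTHFD1, a folate enzyme that supplies the methylene donor of thymidylate synthesis, was at 18.9, 17.8 and 20.4 FPKM in 5-FU libraries, against 11.2, 9.70 and 11.3 FPKM in H2O2 libraries and 14.97, 13.9 and 16.5 FPKM in control libraries (0.80 ± 0.14, adjusted p = 0.0783, limma). Here the control lay between the exposures. DTYMK, the kinase of the next step from thymidylate, was at 7.36, 5.88 and 7.07 FPKM in 5-FU libraries, against 3.58, 3.71 and 4.29 FPKM in H2O2 libraries (0.73 ± 0.16, adjusted p = 0.120). RRM2, the small subunit of ribonucleotide reductase, was at 40.1, 32.3 and 30.3 FPKM in 5-FU libraries, against 18.2, 17.9 and 26.6 FPKM in H2O2 libraries (0.71 ± 0.20, adjusted p = 0.201). MTHFD2, the most abundant member, overlapped, with group means of 42.7 FPKM in 5-FU, 38.2 FPKM in H2O2 and 51.9 FPKM in control.

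No target of p53 passed. Of 24 listed, 14 were tested, 3 did not overlap with 5-FU higher, against 9.73% of all genes, none did with 5-FU lower, and the median was 0.19. RRM2B, the p53-regulated subunit of ribonucleotide reductase, was at 2.82, 3.62 and 3.78 FPKM in 5-FU libraries, against 1.51, 1.85 and 0.833 FPKM in H2O2 libraries and 1.02, 1.35 and 1.08 FPKM in control libraries (1.07 ± 0.23, adjusted p = 0.122, limma). MDM2, the ubiquitin ligase that removes p53, was at 33.9, 33.9 and 57.6 FPKM in 5-FU libraries, against 28.1, 30.5 and 28.9 FPKM in H2O2 libraries (0.47 ± 0.21, adjusted p = 0.418). DDB2, a sensor of damaged bases, was at 23.0, 27.1 and 26.1 FPKM in 5-FU libraries, against 15.7, 21.4 and 16.5 FPKM in H2O2 libraries (0.51 ± 0.17, adjusted p = 0.276). The other 11 tested members, among them FAS, BAX and GADD45A, overlapped.

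The list of snoRNA host lncRNAs had the lowest median of the 27. These genes carry in their introns the snoRNAs that guide chemical modification of ribosomal RNA, and their spliced RNAs are mostly destroyed when ribosomes engage them. Of 29 listed, 27 were tested, 15 did not overlap with 5-FU lower and 1 with 5-FU higher, against 8.25% and 9.73% of all genes, and 12.8% and 9.28% of lncRNA genes. The list median was -0.47 and ran from -0.47 to -0.33 over the alternatives. SNHG7 was the only member past the threshold, and without both libraries numbered 3 the count with 5-FU lower was 17 of 27, against 22.3% of all genes.

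The side on which the control lay differed from member to member. In SNHG7, described above, the H2O2 level was near control and the 5-FU level below it. SNHG15 had the opposite arrangement, at 12.8, 13.1 and 13.2 FPKM in 5-FU libraries, against 24.2, 22.6 and 25.6 FPKM in H2O2 libraries and 13.1, 9.53 and 11.6 FPKM in control libraries (-0.86 ± 0.15, adjusted p = 0.0783, limma). GAS5, a growth-arrest host of C/D snoRNAs, was at 102, 103 and 100 FPKM in 5-FU libraries, against 144, 151 and 148 FPKM in H2O2 libraries and 113, 119 and 127 FPKM in control libraries (-0.54 ± 0.11, adjusted p = 0.108). In GAS5 the control lay between the exposures, and each group was tight.

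SNHG5 was at 12.04, 14.5 and 13.8 FPKM in 5-FU libraries, against 21.1, 25.6 and 18.5 FPKM in H2O2 libraries and 35.3, 24.6 and 23.6 FPKM in control libraries (-0.67 ± 0.19, adjusted p = 0.207, limma). SNHG29, the most abundant member, was at 183, 179 and 158 FPKM in 5-FU libraries, against 226, 267 and 237 FPKM in H2O2 libraries and 245, 251 and 250 FPKM in control libraries (-0.49 ± 0.12, adjusted p = 0.171). SNHG16 was at 67.1, 31.8 and 64.7 FPKM in 5-FU libraries, against 75.8, 82.5 and 78.3 FPKM in H2O2 libraries and 39.6, 41.1 and 37.7 FPKM in control libraries (-0.60 ± 0.24, adjusted p = 0.378). SNHG30 was the single member whose 5-FU libraries all lay above the H2O2 ones, at 4.65, 4.64 and 5.11 FPKM, against 2.73, 3.85 and 3.03 FPKM in H2O2 libraries.

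Transcripts listed under ribosomal protein genes had a fitted level lower in 5-FU for 47 of 60 tested genes and higher for 13, with a median of -0.25. None passed, 15 did not overlap with 5-FU lower and 2 with 5-FU higher, against 8.25% and 9.73% of all genes. Without both libraries numbered 3 the counts were 32 and 7, against 22.3% and 19.7% of all genes. RPL3 was at 26.6, 27.0 and 21.04 FPKM in 5-FU libraries, against 60.3, 52.7 and 38.7 FPKM in H2O2 libraries and 37.7, 23.5 and 41.9 FPKM in control libraries (-0.995 ± 0.24, adjusted p = 0.160, limma). RPL4 was at 127, 73.6 and 194 FPKM in 5-FU libraries, against 258, 279 and 251 FPKM in H2O2 libraries (-1.10 ± 0.33, adjusted p = 0.227), and RPS20, which had the highest log2 difference of the list, was at 9.34, 10.3 and 10.2 FPKM in 5-FU libraries, against 1.74, 3.05 and 3.25 FPKM in H2O2 libraries (1.75 ± 0.56, adjusted p = 0.262). Many ribosomal protein genes have processed pseudogenes nearly identical to them, so the division of their reads is uncertain.

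Among 24 tested ribosome biogenesis factors the median was -0.04, with 4 members lower and 1 higher without overlap, against 8.25% and 9.73% of all genes. PES1, which matures the large subunit, was at 2.52, 2.14 and 3.59 FPKM in 5-FU libraries, against 5.92, 7.58 and 9.26 FPKM in H2O2 libraries and 6.54, 3.41 and 3.42 FPKM in control libraries (-1.32 ± 0.27, adjusted p = 0.111, limma). NPM1, the abundant nucleolar chaperone, was at 115, 132 and 115 FPKM in 5-FU libraries, against 141, 172 and 162 FPKM in H2O2 libraries (-0.39 ± 0.14, adjusted p = 0.304).

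**Figure D4:**
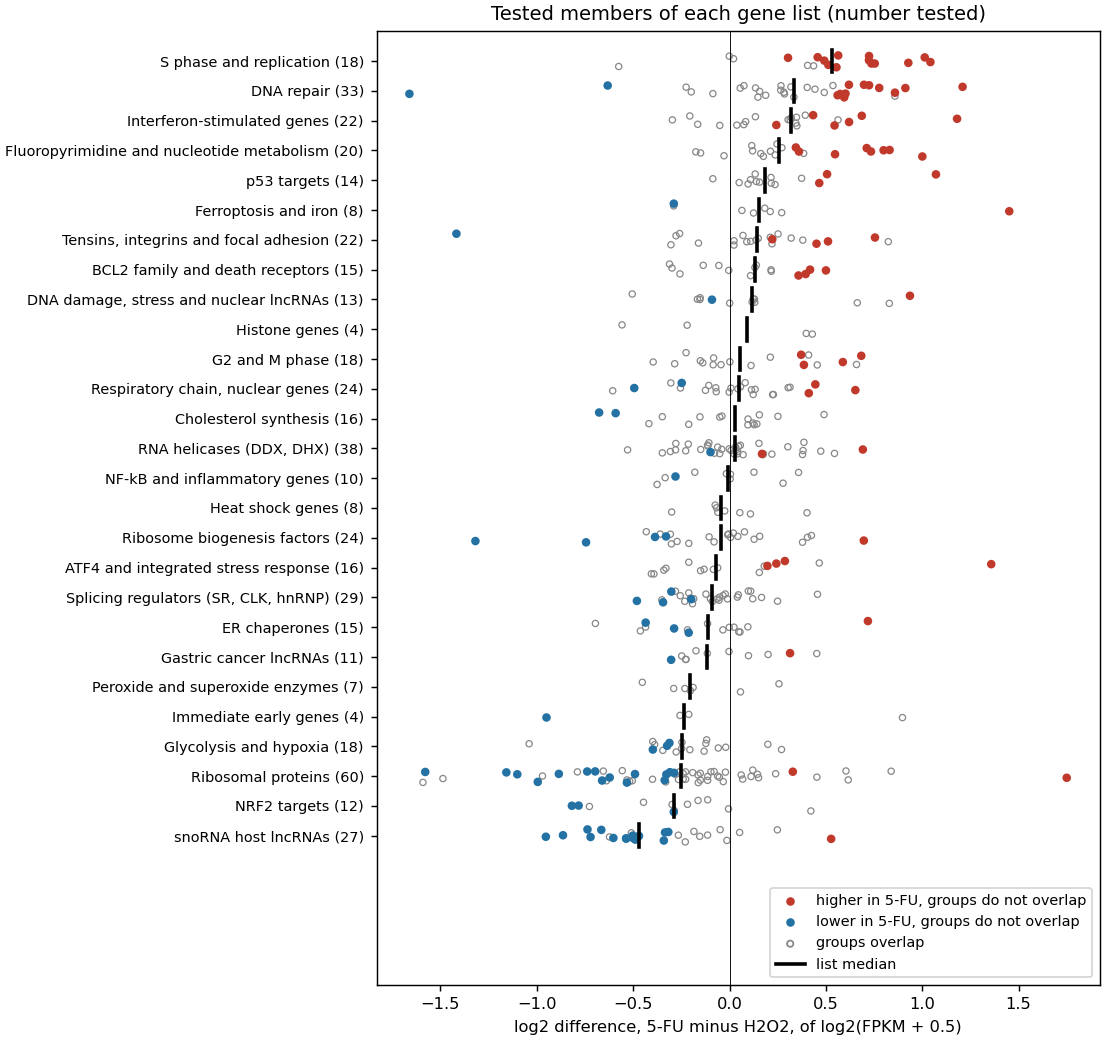
Log2 difference, 5-FU minus H2O2, of log2(FPKM + 0.5) for every tested member of 27 gene lists, ordered by list median (black bar), with the number tested in brackets. Filled points have exposures that do not overlap (red higher, blue lower in 5-FU) and open points overlap; S phase genes lie at the top with a median of 0.53 and snoRNA host lncRNAs at the bottom with -0.47.

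On the oxidative side, GSTP1 had the most negative log2 difference among the genes named by rule. It encodes glutathione S-transferase pi, which couples glutathione to electrophiles. Its transcripts (chr11:67583822-67586653, forward strand) stood at 9.07, 4.32 and 9.68 FPKM in 5-FU libraries, against 44.4, 49.3 and 52.3 FPKM in H2O2 libraries and 6.49, 28.7 and 12.6 FPKM in control libraries. The H2O2 libraries were all above 44 FPKM and every other library was below 29, but the controls spread more than 4-fold. The log2 difference was -2.66 ± 0.45 (SE) and its adjusted p of 0.0783 missed the threshold (limma, 0.0513 to 0.319 over the alternatives). The retained-intron transcript ENST00000467591 held 79.3% of the level.

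The GSTP1 promoter (chr11:67583562-67583861, forward strand) holds the antioxidant response letters TGACNNNGC once, and is shown with that match in capitals. The same letters were found in 2 of 8 NRF2 targets with an entry (25.0%) and in 13.6% of all promoters. GSTP1 itself is not in the list of NRF2 targets. The 2 members with the letters, TXNRD1 and PGD, overlapped between the exposures. AKR1C2, whose exposures did not overlap, had no match.
GSTP1: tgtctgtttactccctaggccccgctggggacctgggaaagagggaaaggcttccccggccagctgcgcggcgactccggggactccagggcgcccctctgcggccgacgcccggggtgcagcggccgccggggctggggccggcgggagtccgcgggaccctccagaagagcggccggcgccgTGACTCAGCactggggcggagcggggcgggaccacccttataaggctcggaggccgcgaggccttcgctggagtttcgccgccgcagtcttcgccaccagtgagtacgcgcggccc

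No NRF2 target passed, and every tested member but AKR1C3 had a fitted level lower in 5-FU. Of 23 listed, 12 were tested, 3 did not overlap with 5-FU lower and none with 5-FU higher, against 8.25% and 9.73% of all genes, and the median was -0.29 (-0.37 to -0.20 over the alternatives). Without both libraries numbered 3 the counts were 7 and 1, against 22.3% and 19.7% of all genes. The control mean lay nearer to the H2O2 mean in 3 of the 12, against 55.8% of all genes. ABCC3, an exporter of glutathione conjugates, was at 38.7, 41.7 and 51.3 FPKM in 5-FU libraries, against 75.8, 78.9 and 71.6 FPKM in H2O2 libraries and 61.6, 76.7 and 72.2 FPKM in control libraries (-0.78 ± 0.15, adjusted p = 0.0961, limma). In ABCC3 the H2O2 and control levels interleaved, and 5-FU lay below both. AKR1C2, an aldo-keto reductase with close paralogs that can share its reads, was at 5.09, 5.40 and 1.88 FPKM in 5-FU libraries, against 6.45, 6.02 and 8.9998 FPKM in H2O2 libraries and 2.35, 1.45 and 2.39 FPKM in control libraries (-0.82 ± 0.34, adjusted p = 0.385). FTH1, the iron-storing ferritin heavy chain, was at 221, 191 and 233 FPKM in 5-FU libraries, against 281, 242 and 264 FPKM in H2O2 libraries (-0.29 ± 0.18, adjusted p = 0.567). NQO1 and TXNRD1 overlapped.

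Enzymes that clear peroxide and superoxide were not separated at this replication. Of 23 listed, 7 were tested, none passed and all 7 overlapped, where 18.0% of all genes did not. Their median was -0.20. CAT, which encodes catalase, was at 2.92, 3.99 and 4.78 FPKM in 5-FU libraries, against 4.77, 6.02 and 5.54 FPKM in H2O2 libraries and 4.96, 4.12 and 5.07 FPKM in control libraries (-0.45 ± 0.19, adjusted p = 0.407, limma). PRDX2, the most abundant member, scattered within groups, from 8.61 to 23.3 FPKM in 5-FU libraries and from 10.8 to 24.6 FPKM in H2O2 libraries. Mitochondrial SOD2 was at 0.891, 0.693 and 0.570 FPKM in 5-FU libraries, against 0.314, 0.532 and 0.740 FPKM in H2O2 libraries (0.26 ± 0.22, adjusted p = 0.682).

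Among interferon-stimulated genes the H2O2 libraries, not the 5-FU ones, lay away from control in OAS2 and OASL. Of 29 listed, 22 were tested, none passed, 6 did not overlap with 5-FU higher and none with 5-FU lower, against 9.73% and 8.25% of all genes, and the median was 0.32 (0.12 to 0.35 over the alternatives). Without both libraries numbered 3 the counts were 10 and 2, against 19.7% and 22.3% of all genes. OAS2, an RNA sensor that makes oligoadenylates to activate RNase L, was at 22.9, 28.4 and 20.6 FPKM in 5-FU libraries, against 7.04, 11.4 and 13.1 FPKM in H2O2 libraries and 24.8, 25.1 and 28.7 FPKM in control libraries (1.18 ± 0.22, adjusted p = 0.0961, limma). The 5-FU and control levels overlapped, and all H2O2 libraries lay below both.

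The same arrangement held for OASL. OASL, a relative of OAS2, was at 10.6, 13.4 and 16.7 FPKM in 5-FU libraries, against 7.67, 10.2 and 6.83 FPKM in H2O2 libraries and 13.9, 13.998 and 13.3 FPKM in control libraries (0.69 ± 0.20, adjusted p = 0.209, limma). ISG20, an antiviral exonuclease, was at 4.53, 3.34 and 4.66 FPKM in 5-FU libraries, against 2.96, 2.10 and 2.54 FPKM in H2O2 libraries and 3.00, 3.90 and 2.01 FPKM in control libraries (0.62 ± 0.23, adjusted p = 0.341). In ISG20, unlike OAS2 and OASL, the control libraries overlapped both exposures.

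The letters of an interferon response element, GAAA followed after any 2 bases by GAAA, occurred on either strand in 10 of the 18 tested members with a promoter entry (55.6%), against 3.65% of all promoters. The promoter of ISG20 (chr15:88638766-88639065, forward strand) is shown, with its match in capitals, as the member above that had both an entry and a match.
ISG20: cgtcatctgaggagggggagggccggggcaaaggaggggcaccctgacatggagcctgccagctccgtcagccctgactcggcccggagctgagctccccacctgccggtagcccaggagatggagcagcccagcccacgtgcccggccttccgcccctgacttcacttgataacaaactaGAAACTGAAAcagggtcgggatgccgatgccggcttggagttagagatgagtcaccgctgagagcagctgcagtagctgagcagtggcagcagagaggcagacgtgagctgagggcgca

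Single transcripts gave a sharper view of OAS2. Of 20318 transcripts tested, 3 passed (0.0148%), 1 higher and 2 lower in 5-FU. OAS2-214 (ENST00000681023, chr12:113003305-113011138) held 73.9% of the gene's level on average over all libraries. It was at 19.8, 24.8 and 17.0 FPKM in 5-FU libraries, against 2.55, 4.40 and 2.21 FPKM in H2O2 libraries and 22.2, 19.7 and 21.8 FPKM in control libraries. In H2O2 its mean was 3.05 FPKM, where the gene's mean was 10.5 FPKM, so there it did not hold most of the level. The 5-FU and control libraries overlapped and the H2O2 libraries all lay far below them, for a log2 difference of 2.60 ± 0.25 (SE; adjusted p = 0.0264, limma over all transcripts). An OAS2 transcript spanning more of the gene, ENST00000680898, ran the other way, at 2.16, 1.96 and 2.13 FPKM in 5-FU libraries, against 3.53, 5.73 and 7.44 FPKM in H2O2 libraries and 1.90, 3.50 and 4.11 FPKM in control libraries. The difference under OAS2 was therefore not shared by all of its transcript models, and how reads were divided between overlapping models was not tested.

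The other 2 called transcripts lay under 2 FPKM on average and are named after their values were seen. GMDS-DT-224 (ENST00000660533, chr6:2245762-2362108), of an lncRNA divergent to the GDP-mannose dehydratase gene, was at 0.149, 0.143 and 0.277 FPKM in 5-FU libraries, against 1.89, 2.04 and 1.78 FPKM in H2O2 libraries and 0.414, 0.455 and 0.317 FPKM in control libraries (-1.80 ± 0.18, adjusted p = 0.0264, limma). TTLL3-228 (ENST00000483051, chr3:9813248-9836315), a retained-intron transcript of a tubulin glycine ligase gene, was at 0, 0.000132 and 0.0643 FPKM in 5-FU libraries, against 1.46, 1.64 and 2.54 FPKM in H2O2 libraries and 1.51, 1.501 and 2.23 FPKM in control libraries (-2.17 ± 0.23, adjusted p = 0.0277). Among the treated libraries both reached 0.5 FPKM in H2O2 only, so they entered the test through the exposure where they were high and their calls support nothing further. Leaving out 1 library at a time gave between 0 and 8 called transcripts: 0 without 5-FU replicate 1 or 2, 1 without H2O2 replicate 1 or control replicate 2, 5 without control replicate 3 and 8 without control replicate 1.

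**Figure D5:**
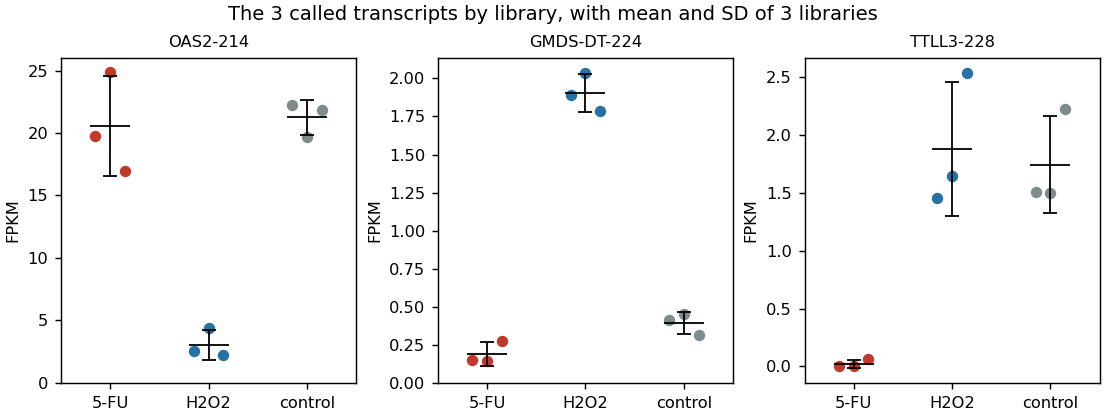
FPKM of the 3 called transcripts in every library, with 5-FU, H2O2 and control from left to right; points are libraries, the long bar is the mean of 3 libraries and the whiskers are its SD. The H2O2 points lie below both other groups for OAS2-214 and above them for GMDS-DT-224, and the 5-FU points of TTLL3-228 lie below both, at no more than 0.0643 FPKM.

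TXNDC5, SSR3 and MOGS were named for the size of their difference, and none passed in the fit of all libraries. TXNDC5, a disulphide isomerase of the endoplasmic reticulum, was at 2.06, 2.32 and 2.10 FPKM in 5-FU libraries, against 20.7, 19 and 4.46 FPKM in H2O2 libraries and 3.25, 4.03 and 2.96 FPKM in control libraries (-2.26 ± 0.45, adjusted p = 0.108, limma). Over the alternatives its adjusted p ran from 0.000403, without H2O2 replicate 3, to 0.254 (limma). H2O2 replicates 1 and 2 were far above all other libraries, and H2O2 replicate 3 was just above the controls. SSR3, a subunit of the translocon-associated complex, was at 12.8, 4.69 and 5.79 FPKM in 5-FU libraries, against 18.5, 21.6 and 18.4 FPKM in H2O2 libraries and 13.5, 13.997 and 17.6 FPKM in control libraries (-1.40 ± 0.30, adjusted p = 0.114). MOGS, the glucosidase that first trims N-glycans, was at 9.73, 13.6 and 9.76 FPKM in 5-FU libraries, against 2.92, 3.63 and 4.17 FPKM in H2O2 libraries and 3.86, 2.64 and 5.89 FPKM in control libraries (1.49 ± 0.26, adjusted p = 0.0783).

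Of 15 tested genes for chaperones of the endoplasmic reticulum, none passed, 3 did not overlap with 5-FU lower and 1 with 5-FU higher, against 8.25% and 9.73% of all genes, and the median was -0.11. HSP90B1, the most abundant, was at 69.8, 68.0 and 62.7 FPKM in 5-FU libraries, against 72.6, 74.4 and 86.0 FPKM in H2O2 libraries (-0.21 ± 0.13, adjusted p = 0.536, limma). Of 16 tested genes of the ATF4 and integrated stress response, none passed and the median was -0.07. Exposures did not overlap in 4 with 5-FU higher and in 0 with 5-FU lower, against 9.73% and 8.25% of all genes. EIF2S1, the subunit of the initiation factor that stress kinases phosphorylate, was at 10.3, 19.9 and 6.05 FPKM in 5-FU libraries, against 5.49, 3.16 and 3.39 FPKM in H2O2 libraries and 1.63, 1.96 and 2.18 FPKM in control libraries (1.36 ± 0.36, adjusted p = 0.192). All 8 tested heat shock genes overlapped, where 18.0% of all genes did not, and their median was -0.04.

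Glycolysis and hypoxia genes had 18 of 23 tested, none past the threshold, 3 without overlap and lower in 5-FU (8.25% of all genes), none the other way (9.73% of all genes), and a median of -0.25. VEGFA, the hypoxia-induced growth factor, was at 113, 103 and 108 FPKM in 5-FU libraries, against 140, 157 and 131 FPKM in H2O2 libraries and 153, 159 and 161 FPKM in control libraries (-0.40 ± 0.12, adjusted p = 0.225, limma). ENO1, the glycolytic enolase, was at 485, 439 and 439 FPKM in 5-FU libraries, against 534, 554 and 621 FPKM in H2O2 libraries and 648, 583 and 527 FPKM in control libraries (-0.32 ± 0.13, adjusted p = 0.358). In both genes the 5-FU libraries were below all others, but the list did not follow them. Its median log2 difference from control was 0.07 in 5-FU and 0.21 in H2O2. GAPDH, the most abundant member, overlapped between the exposures, with group means of 538 FPKM in 5-FU, 638 FPKM in H2O2 and 537 FPKM in control.

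Lists of cell death and iron genes had medians near that of all genes. Of 15 tested BCL2 family and death receptor genes, none passed, 4 did not overlap with 5-FU higher, against 9.73% of all genes, and the median was 0.13. CFLAR, which restrains caspase-8, was at 5.96, 5.29 and 6.33 FPKM in 5-FU libraries, against 3.93, 5.06 and 3.16 FPKM in H2O2 libraries (0.50 ± 0.21, adjusted p = 0.390, limma). Of 8 tested ferroptosis and iron genes, none passed and the median was 0.15. ACSL4, which loads polyunsaturated fatty acids into phospholipids, was at 4.03, 12.7 and 3.99 FPKM in 5-FU libraries, against 2.04, 1.71 and 1.83 FPKM in H2O2 libraries and 2.03, 1.52 and 1.09 FPKM in control libraries (1.45 ± 0.38, adjusted p = 0.188). The 5-FU libraries were all higher, with replicate 2 well above the other 2.

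TNS4, the tensin at the ends of integrin adhesions that the study's title concerns, was at 4.68, 7.02 and 4.96 FPKM in 5-FU libraries, against 3.15, 3.47 and 2.55 FPKM in H2O2 libraries and 3.36, 2.66 and 6.85 FPKM in control libraries (0.75 ± 0.30, adjusted p = 0.358, limma). The 2 exposures did not overlap, and control replicate 3 lay among the 5-FU libraries. Of 22 tested tensin, integrin and focal adhesion genes, none passed, 4 did not overlap with 5-FU higher and 1 with 5-FU lower, against 9.73% and 8.25% of all genes, and the median was 0.14. ITGB4, the laminin-binding integrin beta chain, was at 20.2, 13.1 and 18.3 FPKM in 5-FU libraries, against 21.8, 23.4 and 188 FPKM in H2O2 libraries, so that its log2 difference of -1.42 ± 0.67 rested on H2O2 replicate 3.

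Epithelial markers, checked for the label, had 5-FU libraries all below the H2O2 libraries in 3 of 10 tested genes, against 8.25% of all genes, and none passed. KRT8 was at 110, 81.9 and 118 FPKM in 5-FU libraries, against 276, 173 and 126 FPKM in H2O2 libraries and 260, 261 and 161 FPKM in control libraries (-0.83 ± 0.29, adjusted p = 0.305, limma). KRT18, its partner keratin, was at 60.8, 60.3 and 71.7 FPKM in 5-FU libraries, against 76.2, 78.0 and 87.2 FPKM in H2O2 libraries (-0.33 ± 0.13, adjusted p = 0.357). The part of these epithelial levels in the other results was not tested.

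Other lncRNA genes named for size did not pass. MANCR, a lncRNA studied in dividing breast cancer cells, was at 2.98, 3.198 and 3.04 FPKM in 5-FU libraries, against 1.14, 1.30 and 0.658 FPKM in H2O2 libraries and 1.10, 1.30 and 0.785 FPKM in control libraries (1.24 ± 0.22, adjusted p = 0.0783, limma). LINC00886 was at 0.436, 0.862 and 0.744 FPKM in 5-FU libraries, against 2.26, 2.58 and 1.47 FPKM in H2O2 libraries and 2.003, 2.59 and 2.70 FPKM in control libraries (-1.13 ± 0.23, adjusted p = 0.108). TBC1D22A-DT was at 0.414, 0.185 and 0 FPKM in 5-FU libraries, against 1.60, 1.01 and 1.71 FPKM in H2O2 libraries (-1.50 ± 0.26, adjusted p = 0.0783), and it too reached the filter through H2O2 alone. MALAT1, the abundant nuclear lncRNA, overlapped between the exposures, with group means of 1322 FPKM in 5-FU, 826 FPKM in H2O2 and 1174 FPKM in control and H2O2 replicate 1 the lowest library at 397 FPKM.

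LINC02532 and GBX2-AS1 had fitted log2 differences of 1.03 and 1.09, with 5-FU libraries at 1.47 to 2.16 and 1.02 to 2.21 FPKM, and neither passed; GBX2-AS1 reached the filter through 5-FU alone. Of 13 tested lncRNAs tied to DNA damage, stress and the nucleus and of 11 tied to gastric cancer, none passed, and their medians were 0.12 and -0.12. Among the further genes named by size, TUBGCP5 (1.10 ± 0.19) and TCF19 (1.16 ± 0.25) were higher in all 5-FU than in all H2O2 libraries, and CYP4F3 (-1.79 ± 0.38) and SMN2 (-1.48 ± 0.33) were lower. Each of these 4 missed the threshold, at adjusted p of 0.0783, 0.114, 0.114 and 0.129 (limma), and SMN2 has a near-identical copy, SMN1, with which it can share reads.

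The lists not yet described held no called gene. Medians were -0.01 for 10 tested NF-kB and inflammatory genes, -0.23 for 4 immediate early genes, 0.03 for 16 cholesterol synthesis genes, 0.05 for 24 respiratory chain genes, -0.09 for 29 splicing regulators, 0.03 for 38 RNA helicases and 0.09 for 4 histone genes. KLF4, an immediate early factor of gut epithelium, was at 78.2, 73.7 and 19.4 FPKM in 5-FU libraries, against 99.1, 92.3 and 90.4 FPKM in H2O2 libraries (-0.95 ± 0.42, adjusted p = 0.418, limma), with 5-FU replicate 3 well below the other 2. SRSF5, an SR splicing factor, was at 19.1, 18.9 and 14.98 FPKM in 5-FU libraries, against 24.3, 24.0 and 25.7 FPKM in H2O2 libraries (-0.48 ± 0.14, adjusted p = 0.207).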

How the data were processed

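RNA of 9 libraries was sequenced from total RNA with a directional kit, per the labels' protocols. The authors deposited FPKM values per transcript. Per the submitters' processing notes the tools included edgeR 3.22.5, HISAT2 2.0.5 and StringTie, with GRCh38 as the build, but no roles are stated. Neither the annotation release nor any use of strand is stated in the sources used here. The smallest value above 0 was 1e-06 FPKM, so whole reads and depth could not be recovered and no counting interval is given. FPKM were summed per gene identifier, without further scaling, over 90652 transcripts. Classes come from GENCODE V29 by Ensembl identifier.

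Genes with at least 0.5 FPKM in 3 of the 6 treated libraries entered limma 3.58.1 in R 4.3.3, with a mean-variance trend, as log2(FPKM + 0.5). A single two-sided fit of all 9 libraries left 6 residual degrees of freedom, with Benjamini-Hochberg adjustment over all genes and a threshold of 0.05. The pseudocount makes log2 differences understate changes of low genes. All adjusted p-values are from this limma fit or the same fit on transcripts. Promoter sequences are from RefSeq (GRCh38.p14). The procedure was tested on simulated data.

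The rule named up to 10 genes a direction by log2 difference among those past the threshold, with no overlap and at least 2 FPKM on average on the higher side, filled by smallest p among genes differing by at least 1. It added 4 lncRNA genes a direction at 1 FPKM, up to 3 members of each list, TNS4 and TYMS. Other list members are given to describe their list. The comparison, the 27 gene lists, the 4 marker lists and the rule were chosen with earlier results of these data known. A few list members that enter the counts are not reported here by name.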

Additional observations from a re-analysis of the deposited data

How the results depend on the processing

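The count of 9 called genes was 0 with the 6 treated libraries alone (smallest adjusted p = 0.0997, limma), 0 without a filter on low values and 5 without the mean-variance trend. It ran from 7 to 10 under other pseudocounts, filters and scalings, array weights and robust moderation, from 0 to 4 when single libraries were left out (0 without any 1 of the controls), and was 3 without both treated libraries numbered 3. The 3 called lncRNA genes became 0 with 6 libraries, without a filter and without both libraries numbered 3, and 0 when any single library was left out. The 3 called transcripts became 5 with the 6 treated libraries, a pseudocount of 0.1 or array weights, 0 without a filter and 0 to 8 when single libraries were left out. The causes were not tested.

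Same-numbered libraries of the 2 exposures deviated together only weakly (correlations 0.0747, 0.0119 and 0.0573), so the numbers were not taken to pair them. With the replicate number as a block, 0 genes (1087 at an unadjusted p under 0.05; smallest adjusted p 0.0556, limma), 0 lncRNA genes and 0 transcripts were called.

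Over 83 named genes and 22 alternatives 17 values were missing, where a gene fell under the filter of an alternative. Of the other 1809, 1729 kept direction and call, 68 lost the call, 3 gained it and 9 changed sign. The 9 were MTHFD2 (-0.0267) and H2AZ1 (-0.0814) without both libraries numbered 3, CTTN with quantile normalization (0.159) and, when single libraries were left out, PRDX2 (range -0.638 to 0.0968, positive without 5-FU replicate 2 or H2O2 replicate 3), RELA (-0.0348 to 0.352, negative without H2O2 replicate 2) and H3-3B (-1.79 to 0.503, positive without 5-FU replicate 1 or 3 or H2O2 replicate 1).

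Depth limits are unknown, since FPKM give no counts. With 3 libraries a side, most changes of 1 on the log2 scale were missed in the simulated data.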
